A study of Mus musculus with 4 samples.

Results

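The Notch genes described here are 4 ligands (Dll1, Dll4, Jag1 and Jag2), 3 receptors (Notch1, Notch3 and Notch4) and 3 transcriptional targets (Hey1, Hey2 and Hes1). They were taken by name from a list of Notch pathway genes and not by a cut on measured values. Earlier results of these data were known when they were chosen. They were found by Ensembl gene ID and symbol among the 27998 genes listed for every library. All 10 were listed and all 10 had at least 1 count.

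Notch signalling passes between touching cells. A Delta-like or Jagged ligand on one cell pulls on a Notch receptor of its neighbour, the receptor is cut by ADAM10 and then by gamma-secretase, and the freed intracellular part joins RBPJ in the nucleus and switches on Hey and Hes repressors. In blood vessels the pathway is known for arterial identity, for restraining sprouting, and for the signal that endothelium sends to NOTCH3-bearing mural cells.

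The study measured RNA in single cells of the mouse aorta, in 4 libraries from C57BL/6 mice. Libraries a and b of the aged descending intima pooled 6 mice each, the young arch intima library pooled 8 mice, and the number of mice behind the aged adventitia library is not stated. For the intima, the outer tissue was cleaned off, trypsin was applied to the opened vessel, and its inner surface was scraped off in medium holding actinomycin D, an inhibitor of transcription, before red cell lysis. The labels repeat this protocol for the adventitia. Ages are given only in the sample titles, and sex is not given. The labels name no transgene, deletion or treatment of the animals in any group. The arch and the adventitia were 1 library each, so for the arch the region, the age and the library cannot be told apart, and for the adventitia the layer and the library cannot be told apart. Whether separate mice went into libraries a and b is not stated, so p-values measure only how these libraries differ, and that spread may be technical.

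The 4 files held 2095, 2178, 2187 and 9347 barcodes, in the order descending a, descending b, arch and adventitia, with 13181305 to 29370967 unique molecular identifiers (UMIs, counts of captured RNA molecules). Of these, 14045 cells were analysed, with a median of 2470 UMIs in the adventitia and 4886 to 6962.5 in the intimal libraries. Between 4 and 31 barcodes were shared by a pair of libraries. Clusters were named from marker genes, with the Notch pathway genes left out of the clustering. The names mean endothelial-like, fibroblast-like and so on, and 4 of 35 clusters, with 1976 cells, stayed unnamed. The endothelial class held 1455, 1289, 1253 and 302 cells in the same order. All 8 endothelial markers had counts in each library, with a summed level of 9200, 9493, 7550 and 4373 CPM (counts-per-million, relative to all UMIs of the class in that library), and Vwf stood at 28.7 CPM in the adventitia against 749.4 to 1045.7 CPM in the intima. The adventitial endothelial cells also carried RNA of fat cells. All 5 fat markers were present there, led by Ucp1 at 1193.2 CPM and summing to 1769 CPM, against 0, 0 and 0.493 CPM in the intimal libraries. The part of these transcripts in the results was not tested.

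Of the 10 genes, 8 had a promoter in the RefSeq table of GRCm38.p6, and Hey1 and Hes1 had none there. The letters GTGGGAA, a core of the sequence that RBPJ binds, were searched on both strands of each 300-base promoter. Of the 8 matched genes, only Hey2 held them, with one match beginning 207 bases before the RefSeq gene start, on the opposite strand, and one beginning 4 bases before that start and running across it, on the gene strand. The start in GENCODE M21 lies upstream of the RefSeq one, so the second match is inside the GENCODE gene. At least 1 match was present in 6.38% of 32851 promoters of this length and 2 or more in 0.256%. The E-box CACGTG, which HEY and HES proteins can bind, was in none of the 8 genes' promoters and in 7.15% of all. A match describes letters only. The Hey2 promoter is shown because Hey2 is the member that differed most between aortic layers. It is printed from the RefSeq table, chr10:30842781-30843033 on the minus strand, 5′ to 3′ along the gene, up to the end of the second match, with the matches in capitals.
Hey2: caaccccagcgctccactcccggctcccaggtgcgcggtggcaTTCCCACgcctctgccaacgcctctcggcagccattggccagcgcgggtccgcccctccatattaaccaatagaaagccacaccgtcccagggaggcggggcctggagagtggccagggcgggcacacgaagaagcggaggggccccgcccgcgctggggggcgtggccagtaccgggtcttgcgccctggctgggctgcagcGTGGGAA

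**Figure D1:**
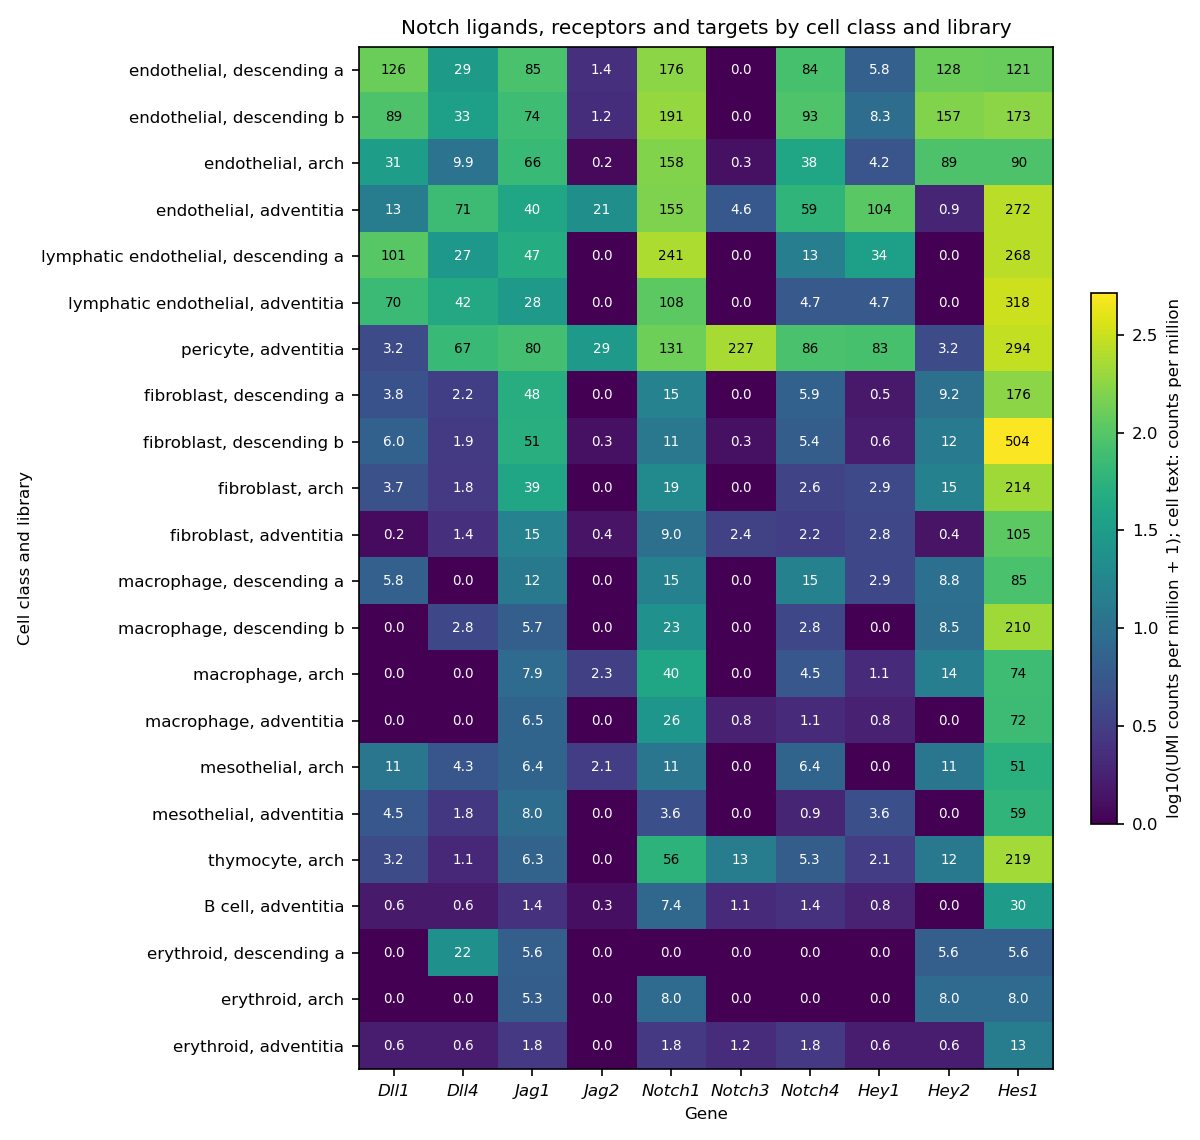
Levels of the 10 Notch genes (horizontal axis) by cell class and library (vertical axis). Printed values are CPM, and colour is log10 of the CPM plus 1. Hey2 stands out in intimal endothelium, Hey1 in adventitial endothelium and pericytes, Notch3 in pericytes at 227, and Hes1 in fibroblasts as well as endothelium. Dll1 is high in intimal and lymphatic endothelium, and Notch4 in the endothelial class and pericytes.

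Over all cells together, the transcripts of the ligands, Notch1 and Notch4 were largely endothelial, and 6.98% of Notch3 UMIs were. The endothelial class held 73.6%, 61.5%, 59.0% and 3.85% of the cells of descending a, descending b, the arch and the adventitia. In the adventitia the endothelial share of UMIs was 33.3% for Dll1, 59.7% for Dll4, 21.0% for Jag1 and 56.1% for Jag2. It was 29.8% for Notch1 and 49.6% for Notch4 there. Dll1 (ENSMUSG00000014773, chr17:15367354-15376872, minus strand, coordinates here and below from GENCODE M21 on GRCm38) codes for a Delta-like ligand, and 96.1% of its UMIs over all cells were in the endothelial class. Its level in endothelial cells, here and below in the order descending a, descending b, arch and adventitia, was 126 CPM in descending a, 88.9 in descending b, 31.4 in the arch and 12.9 in the adventitia. Lymphatic endothelial cells carried it too, at 101 CPM in descending a and 70.2 CPM in the adventitia, where they stood above the other endothelial cells. In fibroblasts it was 3.78, 5.99, 3.68 and 0.2002 CPM.

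Dll4 (ENSMUSG00000027314, chr2:119325784-119335962, plus strand) is the Delta-like ligand of arteries and sprouting tip cells, and 90.2% of its UMIs were endothelial. Its endothelial level was 28.8, 33.3, 9.94 and 71.2 CPM in the 4 libraries. Fibroblasts held 1.40 to 2.16 CPM, and macrophages 1 UMI in all 4 libraries together.

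Jag1 (ENSMUSG00000027276, chr2:137081456-137116644, minus strand) codes for a Jagged ligand that endothelium presents to mural cells. It was the ligand least confined to endothelium by share of UMIs among Dll1, Dll4 and Jag1, with 80.8% there and 14.6% in fibroblasts. Endothelial cells had 85.2, 73.9, 66.4 and 39.8 CPM, and fibroblasts had 48.0, 50.8, 38.6 and 15.02 CPM. Jag2 (ENSMUSG00000002799, chr12:112907819-112929776, minus strand), the other Jagged ligand, was rare: 14, 11, 2 and 23 UMIs in the endothelial cells of the 4 libraries, or 1.35, 1.25, 0.164 and 21.3 CPM.

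Among the receptors, Notch1 (ENSMUSG00000026923, chr2:26457903-26516663, minus strand), the general receptor of the family, had 89.0% of its UMIs in endothelial cells, at 176, 191, 158 and 155 CPM. Notch4 (ENSMUSG00000015468, chr17:34564268-34588503, plus strand), a receptor largely restricted to endothelium, had 94.6% there, at 84.2, 92.7, 38.2 and 59.2 CPM. Notch1 thus spanned a narrow range over the 4 libraries, whereas Notch4 was lowest in the arch. Notch3 (ENSMUSG00000038146, chr17:32120820-32166852, minus strand), the mural cell receptor, gave 0, 0, 4 and 5 endothelial UMIs. A count of 0 in descending a allows a level of up to 0.289 CPM and in descending b of up to 0.340 CPM, by a floor of 3 counts.

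Among the targets, Hey2 (ENSMUSG00000019789, chr10:30832359-30842801, minus strand), a repressor linked to arterial fate, had 96.0% of its UMIs in endothelial cells. Its endothelial level was 128, 157, 88.9 and 0.925 CPM, the last being 1 UMI in 302 cells. Hey1 (ENSMUSG00000040289, chr3:8663359-8667256, minus strand), its close relative, ran at 5.79, 8.27, 4.19 and 104 CPM in the same cells. Hes1 (ENSMUSG00000022528, chr16:30064384-30067796, plus strand), which also answers to signals other than Notch, was spread widely: 48.9% of its UMIs were in endothelial cells and 35.6% in fibroblasts. Its endothelial level was 121, 173, 90.1 and 272 CPM.

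Antisense or overlapping genes lie across Dll1, Dll4, Notch1, Notch3 and Notch4 on the opposite strand in GENCODE M21, and the strand setting of the counting is not given in the sources used here. All levels rest on 3′-end tags, so they were compared between classes and libraries for 1 gene at a time and not between genes.

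To ask which of these genes separated the cell classes, the UMIs of each class were summed per library. The sums were compared within the 3 intimal libraries with edgeR's quasi-likelihood test, with the library as a block. Each fit had 2 residual degrees of freedom. It also had prior ones that pool the spread of all genes tested, 6.61 against fibroblasts and 17.8 against macrophages. A gene was called when its Benjamini-Hochberg adjusted p over all genes tested was under 0.05. Against fibroblasts, Dll1, Dll4, Jag1, Notch1, Notch4, Hey1 and Hey2 were higher in endothelium and Hes1 was lower. That is 8 of 8 members tested, where 52.3% of the 11770 genes tested were called in either direction. The median log2 difference was 3.26 over the 8 members and 0.02 over all genes tested. Jag2 and Notch3, with 28 and 5 UMIs, fell below the filter on low counts.

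Notch4 was 3.79 ± 0.16 higher on the log2 scale (SE, edgeR adjusted p = 2.03e-07), Dll1 3.85 ± 0.25 (edgeR adjusted p = 2.35e-06) and Hey2 3.14 ± 0.20 (edgeR adjusted p = 2.36e-06). Dll4 differed by 3.40 ± 0.29 and Notch1 by 3.37 ± 0.17. Jag1 differed by only 0.54 ± 0.11, with an edgeR adjusted p of 0.00341. Each of these 6 genes was higher in endothelium than in fibroblasts in all 3 intimal libraries. Hes1 went the other way, 1.30 lower on the log2 scale in endothelium with an SE of 0.18 (edgeR adjusted p = 0.000337), from 176, 504 and 214 CPM in fibroblasts. With the adventitial library added to this comparison the Hes1 difference was -0.71 with an edgeR adjusted p of 0.308, since adventitial fibroblasts had 105 CPM against 272 CPM in adventitial endothelium. Hey1 was 1.90 ± 0.56 higher (edgeR adjusted p = 0.0201), and leaving out descending a or descending b took its adjusted p to 0.0844 or 0.139, whereas leaving out the arch raised the difference to 3.40.

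Low fibroblast levels of endothelial genes went along with endothelial marker RNA in those cells. In the 3 intimal libraries the fibroblast level of Pecam1 was 7.8%, 5.3% and 9.7% of the endothelial level, and that of Cdh5 was 8.5%, 5.3% and 9.2%. The same ratio was 3.0%, 6.7% and 11.7% for Dll1, 7.0%, 5.8% and 6.7% for Notch4, and 7.2%, 7.8% and 16.5% for Hey2. It was 56.4%, 68.6% and 58.2% for Jag1 and 146%, 292% and 238% for Hes1, far from the values of the markers. The part of endothelial RNA in the fibroblast levels was not tested.

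Against macrophages, 6 of the 8 members tested were higher in endothelium and none was called lower, where 38.7% of 11550 genes were called, 20.7% higher and 18.0% lower. Their median log2 difference was 2.87, against 0.17 over all genes tested. Macrophages held 2 Dll1 UMIs against 2474 in the endothelial cells of these libraries, a ratio of 62.2 with a counting interval of 17.2 to 514, and 1 Dll4 UMI against 714, a ratio of 35.9 with an interval of 6.43 to 1421. Jag1 was 2.81 ± 0.31 higher (log2, edgeR adjusted p = 2.49e-07), Notch1 2.28 ± 0.26, Notch4 2.93 ± 0.36 and Hey2 3.01 ± 0.29. Leaving out the arch moved Notch1 to 2.98 and Hey2 to 3.73, and leaving out descending a or b left macrophages with no Dll1 or no Dll4 UMI, respectively. Hes1, at 84.7, 210 and 73.5 CPM in intimal macrophages, differed by -0.18 ± 0.19 (edgeR adjusted p = 0.505). Hey1, with 2 macrophage UMIs, differed by 1.76 ± 0.94 (edgeR adjusted p = 0.151).

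The rest of the pathway held genes called in both directions between endothelium and fibroblasts, as did all genes tested, of which 25.8% were called higher and 26.5% lower. Of 11 receptor, atypical ligand and Fringe genes outside the members, 7 were tested, 3 were higher in endothelium and 4 lower. The glycosyltransferases Mfng (3.14 on the log2 scale) and Lfng (1.97), which tune receptors to Delta or Jagged ligands, and the vascular secreted protein Egfl7 (3.07) were endothelial, whereas the receptor Notch2 (-1.57) and the matrix proteins Mfap5 (-3.28) and Mfap2 (-1.90) were lower there. Of 16 genes for ligand uptake and receptor cleavage, 10 were higher and 3 lower, with the receptor-cutting protease Adam10 at 1.86 and the gamma-secretase subunit Aph1b at 2.84. Of 17 nuclear and brake genes tested, 7 were higher and 5 lower. Rbpj itself, the DNA-binding partner of cleaved Notch, was lower in endothelium by 1.58 (edgeR adjusted p = 8.23e-06), at 37.1, 38.4 and 39.4 CPM against 113, 110 and 84.6 CPM in fibroblasts. Of 6 other targets tested, 5 were higher, among them the Notch feedback inhibitor Nrarp (3.49) and the arterial ephrin Efnb2 (3.25), and Bhlhe40 was lower. Of 13 arterial genes, 11 were higher and only the chemokine Cxcl12 was lower.

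Within the endothelial class, arch cells had less Dll1, Dll4 and Notch4 than descending cells, and the adventitial cells had more Hey1, Jag2, Dll4 and Hes1 and less Dll1, with Hey2 nearly absent. Of the 1253 arch cells, 609 and 545 lay in 2 clusters that held 73 and 6 cells of descending a and 103 and 8 of descending b. These 2 comparisons share the descending libraries as their reference. They came from 1 edgeR fit over the 4 libraries with 1 residual degree of freedom and 7.34 prior ones. The prior ones pool the spread of all genes tested. The SEs and edgeR p-values thus rest largely on that pooled spread, and less on a gene's own gap between descending a and b. In that fit the lone arch and adventitial libraries were assumed to vary like the descending pair.

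**Figure D2:**
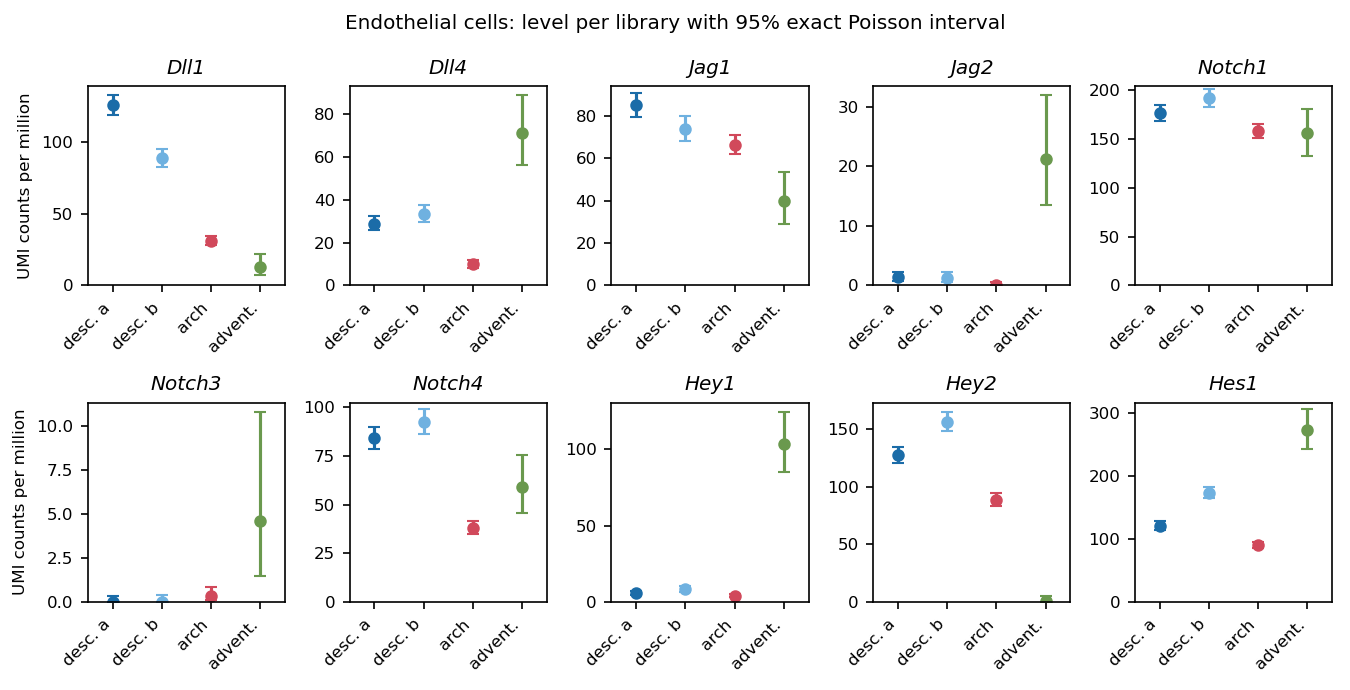
Level of each Notch gene in the endothelial cells of each library, in CPM, with bars for the 95% exact Poisson interval, which covers counting error only. Dll1 falls from 126 and 88.9 in the descending libraries to 31.4 and 12.9, Notch1 stays between 155 and 191, Hey1 reaches 104 in the adventitia and Hey2 drops to 0.925 there.

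In the arch, 3 of 9 members tested were lower and none was called higher, where 6.32% of 12874 genes were called, 2.63% lower and 3.70% higher. Dll1 was at 31.4 CPM (counting interval 28.3 to 34.7) against 126 (119 to 133) and 88.9 (82.8 to 95.3) in the descending libraries. The arch level lay below both descending levels and the descending levels also differed from each other. Fits with 1 descending library left out gave Dll1 log2 differences of -1.43 (without descending a) and -1.94 (without descending b). The log2 difference was -1.71 ± 0.23 (SE, edgeR adjusted p = 0.00408). Dll4 was at 9.94 against 28.8 and 33.3 CPM, a difference of -1.57 ± 0.18 (edgeR adjusted p = 0.00214). Notch4 was at 38.2 against 84.2 and 92.7 CPM, a difference of -1.14 ± 0.15 (edgeR adjusted p = 0.00414). DESeq2 kept Dll1 and Dll4 and gave Notch4 an adjusted p of 0.0508.

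The other 6 members tested were also lower in the arch by value, and did not pass the test. Hey2 differed by -0.61 ± 0.17 (edgeR adjusted p = 0.0713) and Hes1 by -0.63 ± 0.21 (edgeR adjusted p = 0.133), and both lay below the 2 descending levels. Hey2 passed at an adjusted p of 0.00537 with no filter on low counts, 0.0174 in cells with at most 5% mitochondrial UMIs, 0.0324 with doublet calls kept and 0.0447 with RLE size factors, against 1.000 by DESeq2. Jag1 differed by -0.19 ± 0.15, Notch1 by -0.15 ± 0.14 and Hey1 by -0.66 ± 0.30. Jag2 rested on 2 arch UMIs against 25, an inverse ratio of 7.93 with a counting interval of 1.98 to 69.0. The median over the 9 members was -0.66 and over all genes tested -0.01.

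For the other pathway lists, the shares to read against are the 3.70% of all genes called higher and 2.63% called lower, which together come to about 1 gene in a list of this size. By edgeR none of 16 processing genes, 17 nuclear and brake genes or 7 other targets tested was called in the arch, with 1, 2 and 1 of them at an unadjusted p under 0.05 and 0 called by DESeq2 in each list. Among the ligands and receptors outside the members, Mfap5 was higher by 0.85 and Egfl7 lower by 0.76 on the log2 scale. Of 13 arterial genes, Cxcl12 was higher (1.55) and 4 were lower: the semaphorin Sema3g (-2.23), the connexin Gja5 (-1.26), the growth factor Vegfc (-1.13) and the transcription factor Sox18 (-2.998). The arterial median was -0.33. Other RNA moved with the arch too: the summed level of the 6 smooth muscle markers in endothelial cells was 549 CPM there against 126 and 101 CPM, with Acta2 at 358 CPM and Myh11 at 3.2 CPM. The summed level of 8 immediate early genes, which cell isolation can induce, was 2947 CPM in the arch against 4050 and 7011 CPM. The part of either in the Notch differences was not tested.

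**Figure D3:**
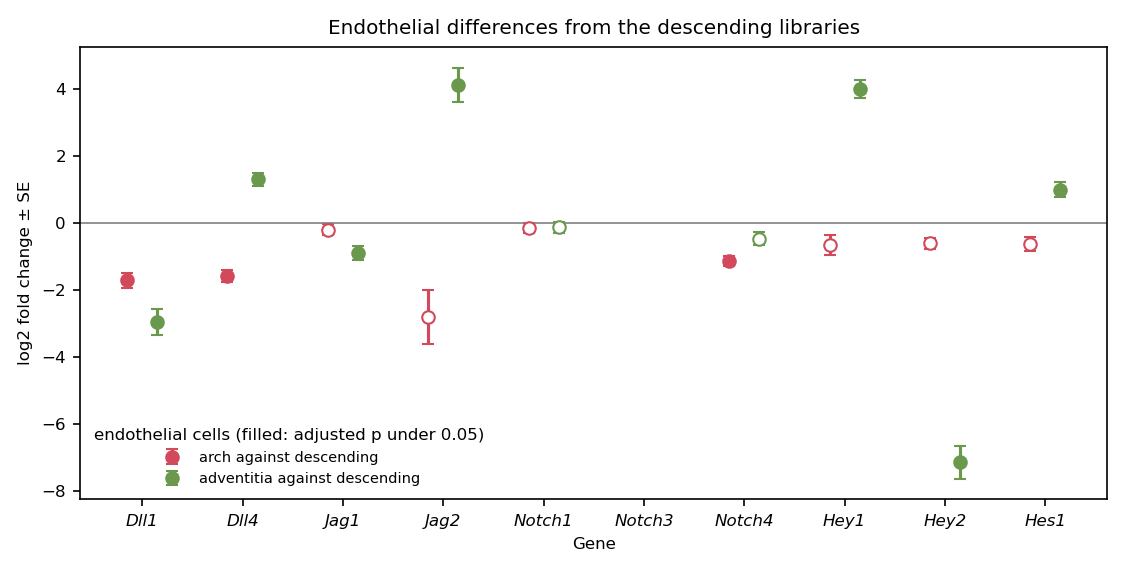
Differences of the endothelial cells of the arch (red) and of the adventitia (green) from the descending libraries, as edgeR log2 fold change with its standard error. Filled points passed an adjusted p of 0.05. Notch3 was not tested. The arch points lie at or below 0 with Dll1, Dll4 and Notch4 filled, and the adventitial points run from -7.14 for Hey2 to 4.12 for Jag2.

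In the adventitia, 7 of 9 members tested were called, 4 higher and 3 lower, where 30.5% of 12874 genes were called, 15.9% higher and 14.6% lower. Of the 302 adventitial cells, 299 lay in a cluster that held no intimal cell. Hey2 was at 128 and 157 CPM in the descending libraries and at 0.925 CPM (counting interval 0.0234 to 5.15) in the adventitia. That is 2710 UMIs against 1, an inverse ratio of 153 with a counting interval of 27.4 to 6030 (edgeR adjusted p = 1.57e-05). Hey1 was at 5.79 and 8.27 CPM in the descending libraries and at 104 CPM in the adventitia, a ratio of 14.95 (11.5 to 19.4) and a log2 difference of 3.997 ± 0.263 (edgeR adjusted p = 1.27e-05). The 2 Hey genes therefore stood in opposite order in the layers, each with its groups well apart.

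The ligands split as well. Dll1 was at 12.9 CPM against 126 and 88.9, lower by 2.95 on the log2 scale (SE 0.38, edgeR adjusted p = 0.000583). Jag1 was at 39.8 CPM against 85.2 and 73.9 (-0.89 ± 0.22, edgeR adjusted p = 0.0158), but DESeq2 gave it an adjusted p of 0.160 and the cells with at most 5% mitochondrial UMIs a difference of -0.57 with 0.0960 by edgeR. Dll4 was higher, at 71.2 CPM against 28.8 and 33.3 (1.31 ± 0.20, edgeR adjusted p = 0.00149). Jag2 was higher, at 21.3 CPM against 1.35 and 1.25, a ratio of 16.3 with a counting interval of 8.86 to 30.0 (edgeR adjusted p = 0.000504).

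Both tested receptors kept closer to their descending levels. Notch1 differed by -0.13 ± 0.16 (edgeR adjusted p = 0.571) and Notch4 by -0.47 ± 0.19 (edgeR adjusted p = 0.0984), so a difference of the size seen for the ligands was not found, which does not show that the levels were equal. Hes1 was higher, at 272 CPM against 121 and 173 (1.00 ± 0.22, edgeR adjusted p = 0.00878). The median over the 9 members was -0.13, beside -0.14 over all genes tested.

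The adventitial endothelial cells differed in vessel type markers, beside 15.9% of all genes called higher and 14.6% called lower. All 11 capillary genes tested of 12 were higher there, with a median of 11.20 on the log2 scale, or 10.53 with the 2 genes absent from 1 group held at a floor of 3 counts. Of 13 arterial genes, 8 were lower, among them Bmx (-5.75), Gja5 (-4.82) and Gja4 (-3.95), and Cxcl12, Sox17 and Nrp1 were higher. Of 9 venous and lymphatic genes tested, Nr2f2 (4.86) and Nrp2 (8.66) were higher and Vcam1 (-5.31) and Selp (-3.17) lower. Of 7 other Notch targets, the chemokine receptor Cxcr4 and the netrin receptor Unc5b (1.41) were higher and Efnb2 (-1.07) lower. Nrarp was at 91.6 CPM against 104 and 106. The median of the 16 processing genes was -0.57 on the log2 scale, against -0.14 over all genes tested. Among them the E3 ligase Neurl1b was higher, and Aph1b (-4.17) and Adam10 (-1.47) were lower. The 17 nuclear and brake genes tested had a median of -0.24, closer to that over all genes, with Dtx3 and Fbxw7 lower.

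Several measures moved with the adventitial library besides vessel type. Its endothelial cells had a median of 2704 UMIs against 5380 to 8450, and a median mitochondrial share of 5.12% against 2.85% to 3.36%. The immediate early sum was 11319 CPM, and 5 of those 8 genes were called higher and none lower. All 6 pericyte markers were present, with a sum of 333 CPM led by Rgs5 at 261.8 CPM, against 1.02 to 3.94 CPM in intimal endothelium. In cells with at most 5% mitochondrial UMIs, 148 adventitial cells among them, Hey2, Hey1, Jag2, Dll1, Dll4 and Hes1 kept their calls. When the cells under that limit were clustered anew, only 1 of the 148 fell in a cluster named endothelial, so that clustering gave no adventitial value. The part of the other measures was not tested.

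**Figure D4:**
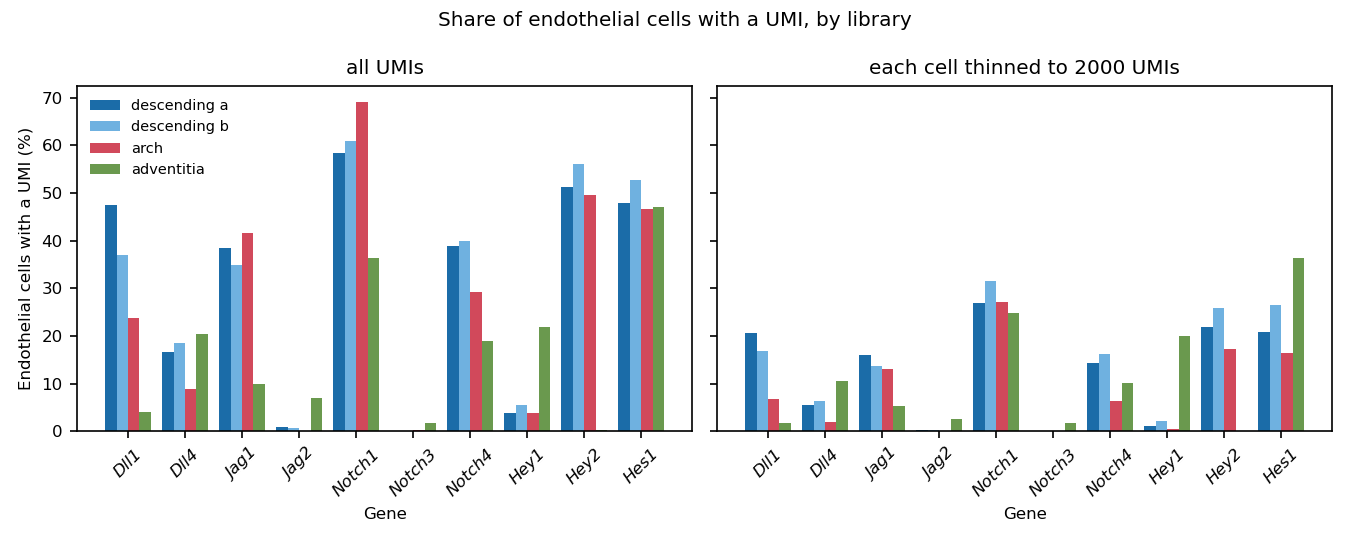
Percent of endothelial cells with at least 1 UMI of each Notch gene, by library, with all UMIs (left) and with each cell thinned to 2000 UMIs (right). Thinning brings the arch Hey2 share to 17.3%, below 22.0% and 25.9% in the descending libraries, and leaves the adventitia highest for Hey1 at 20%.

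Per cell, the genes were detected in a minority or a small majority of endothelial cells. Dll1 had a UMI in 47.5%, 36.9%, 23.8% and 3.97% of them. With each cell thinned to 2000 UMIs, which kept 1407, 1204, 1253 and 225 cells, the shares were 20.6%, 16.8%, 6.70% and 1.78%. Thymocytes of the arch, which should lack Dll1 and had a median of 4180 UMIs against 8450 in arch endothelium, showed 1.96%, or 0.654% thinned. Adventitial B cells, with a median of 2072 UMIs against 2704, showed 0.138%, and 0 of 764 when thinned. The order of the libraries was thus the same before and after thinning.

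Hey2 had a UMI in 51.3%, 56.0%, 49.6% and 0.331% of endothelial cells, and in 22.0%, 25.9%, 17.3% and 0 after thinning, where 0 of 225 cells allows a share of up to 1.33%. Arch thymocytes showed 7.19%, or 2.61% thinned, and adventitial B cells none. The Hey2 in thymocytes rested on 11 UMIs. Hey1 had a UMI in 3.85%, 5.51%, 3.91% and 21.9% of endothelial cells, and in 1.14%, 2.08%, 0.399% and 20% after thinning, against 0.207% of adventitial B cells. Notch1 was detected most often, in 58.3%, 61.0%, 69.0% and 36.4%, and thinning brought the 4 libraries to 27.0%, 31.5%, 27.1% and 24.9%. Its high share in the arch before thinning went with the deeper cells there. Notch4 had a UMI in 38.9%, 40.0%, 29.2% and 18.9%, and in 14.3%, 16.2%, 6.30% and 10.2% after thinning, with the arch lowest once depth was equal. Dll4 was found in 16.6%, 18.5%, 8.94% and 20.5%, and in 5.61%, 6.40%, 2.00% and 10.7% after thinning. Of 41 erythroid cells of descending a, with a median of 4239 UMIs against 5737, 9.76% had a Dll4 UMI, or 4.88% after thinning, which is near the thinned endothelial share of that library and rests on 4 UMIs, while none of 56 arch erythroid cells had one. Hes1 was found in 46.6% to 52.7% of endothelial cells in every library, and after thinning in 20.7%, 26.5%, 16.5% and 36.4%, against 5.76% of adventitial B cells.

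Ligand and receptor were found together about as often as their separate shares give. At least 1 of the 4 ligands and 1 of the 3 receptors had UMIs in 51.6%, 47.7%, 46.4% and 19.2% of endothelial cells, and in 14.996%, 13.9%, 6.07% and 7.56% at 2000 UMIs. At that depth a ligand was found in 37.2%, 32.1%, 20.8% and 19.6% of endothelial cells and a receptor in 37.2%, 41.6%, 31.7% and 32.9%, whose products are 13.9%, 13.3%, 6.57% and 6.43%. The share with both in fibroblasts at 2000 UMIs was at most 0.610%. The mean number of the 10 genes seen per endothelial cell at 2000 UMIs was 1.28, 1.39, 0.895 and 1.14, lowest in the arch.

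The endothelial cells were divided into 8 sub-clusters, e0 to e7, whose cells came mainly from descending (e0, e1, e2, e6), arch (e3, e4, e5) or adventitial (e7) libraries. The levels in them are a description with no test. Dll1 was highest in e0, led by Il33, Plat and Nkx2-3, at 160 and 108 CPM in descending a and b, and in e1, led by Adra2a and Col8a1, at 144 and 113 CPM. It was lower in e2, led by Tac2 and Ccn2, at 64.8 and 37.8 CPM, and in e6, led by Serpina3g and Aqp1, at 97.6 and 77.1 CPM. Hey2 was 115 and 132 CPM in e0, 130 and 174 CPM in e1, 167 and 202 CPM in e2 and 78.1 and 130.5 CPM in e6, so the sub-clusters did not fall in 1 order for both genes. RNA of the fibroblast marker Dcn was unequal among them, at 363 and 380 CPM in e0, 283 and 254 in e1, 1356 and 1245 in e2 and 1723 and 2110 in e6.

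Within the arch, Dll1 was 44.8 CPM in e3, 35.7 in e5 and 18.4 in e4, the last led by Sfrp2 and Acta2. Dcn was at 1334 CPM and Acta2 at 515 CPM in e4, against 370 and 157 CPM in e3 and 420 and 345 CPM in e5. The part of fibroblast and smooth muscle RNA in these levels was not tested. The highest of these Dll1 levels lay between the e2 levels of descending b and descending a. Dll4 was at most 11.8 CPM in the 3 arch sub-clusters and at least 15.8 CPM in every descending one. Notch4 was 33.5 to 42.9 CPM in the arch sub-clusters, and the e6 cells of descending a came close to them at 43.7 CPM, while e1 reached 102 and 126 CPM. Notch1 varied least, from 137 to 209 CPM over all 8.

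**Figure D5:**
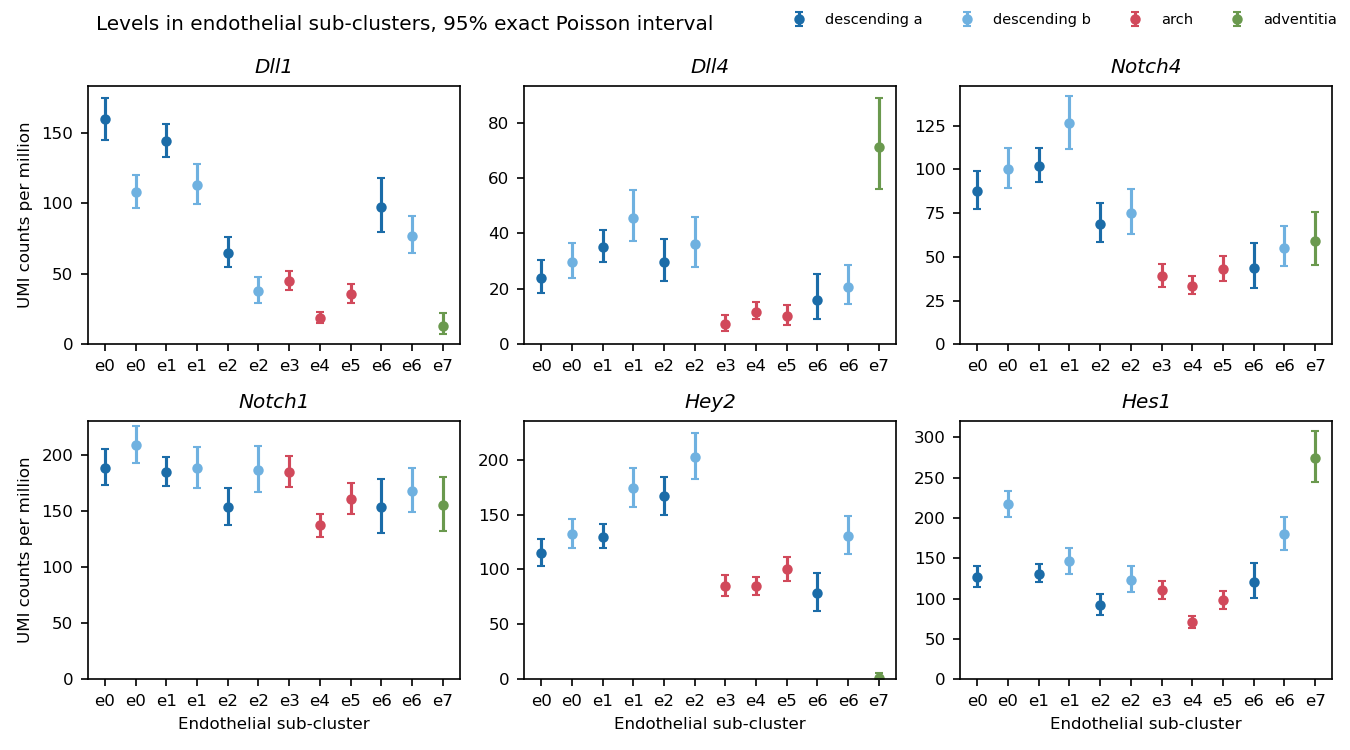
Levels of 6 Notch genes in endothelial sub-clusters e0 to e7, in CPM with 95% exact Poisson intervals, coloured by library. Dll1 falls from 160 in e0 of descending a to 18.4 in the arch sub-cluster e4, Hey2 peaks at 202 in e2 of descending b, and the adventitial e7 has the highest Dll4 and Hes1.

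Outside the main endothelium, 3 small classes stood out. The pericyte class, 65 cells of the adventitia, held 71 of the Notch3 UMIs, or 55.0% of all, at 227 CPM (counting interval 177 to 286). Next came smooth muscle cells, 33 over the libraries, at 26.6 CPM on 5 UMIs and arch thymocytes at 12.7 CPM on 12 UMIs, whose intervals overlap each other. The Notch3 target Heyl was at 60.6 CPM in pericytes and 1.85 CPM in adventitial endothelium. Pericytes also held Dll4 at 67.0, Jag1 at 79.8, Jag2 at 28.7, Notch1 at 131, Notch4 at 86.2, Hey1 at 83.0 and Hes1 at 294 CPM. Endothelial markers stood high in the same cells: Pecam1 was at 68.4% of its adventitial endothelial level, Cdh5 at 78.4% and Cldn5 at 72.7%, beside 94.1% for Dll4, 84.2% for Notch1, 80.1% for Hey1, 146% for Notch4, 201% for Jag1 and 4899% for Notch3. All 8 endothelial markers were present, with a sum of 3322 CPM against 4373 CPM in adventitial endothelium. Their median of 4059 UMIs lay above the 2704 of adventitial endothelial cells. The part of endothelial RNA, or of pericytes captured together with endothelial cells as doublets, in the pericyte levels was not tested.

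Lymphatic endothelial cells, 70 in all, combined high Dll1 and Hes1 with no Hey2. In the 21 cells of descending a, Dll1 was at 101, Notch1 at 241, Notch4 at 13.4 and Hes1 at 268 CPM. In the 41 adventitial cells, Dll1 was at 70.2, Notch1 at 108, Notch4 at 4.68 and Hes1 at 318 CPM. The Notch4 levels rested on 2 UMIs and 1 UMI. In both libraries Notch4 was lower, and Hes1 higher, by value than in the blood endothelial cells of the same library. Arch thymocytes, immature T cells whose development needs Notch1, had Notch1 at 56.0 CPM, Hes1 at 219 CPM and the Notch target Ptcra at 56.0 CPM. The 24 adventitial mast cells had Hes1 at 477 CPM on 25 UMIs, with a counting interval of 309 to 704 that spans the level in fibroblasts of descending b.

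In fibroblasts of the arch, edgeR called none of the 6 members tested with TMM factors and the filter on low counts, where 5.04% of 11518 genes were called, 2.86% higher and 2.18% lower. By edgeR 1 of the 6 had an unadjusted p under 0.05, and DESeq2 called 0. That gene was Hes1, at 214 CPM in the arch against 176 and 504 CPM, which lay between the descending libraries. Its log2 difference of -0.68 ± 0.23 had an edgeR adjusted p of 0.0648, and of 0.0320 with RLE size factors and 0.0390 with no filter on low counts. It was -1.24 without descending a and 0.33 without descending b. In the adventitia 4 of 6 were lower, where 25.5% of genes were called, 14.7% higher and 10.8% lower. Jag1 was at 15.02 CPM against 48.0 and 50.8, lower by 1.56 on the log2 scale (SE 0.25, edgeR adjusted p = 5.03e-08). Hey2 had 2 UMIs against 56, an inverse ratio of 27.8 with a counting interval of 7.35 to 235, and Dll1 had 1 UMI against 26, an inverse ratio of 25.8 (4.24 to 1059). Pecam1 in the same fibroblasts was at 10.2 CPM against 284 and 214 CPM, and its part in the Hey2 and Dll1 levels was not tested. Hes1 was at 105 CPM against 176 and 504, lower by 1.55 on the log2 scale, but by 2.13 without descending a and by 0.56 without descending b. The fibroblast fit over the libraries had 1 residual degree of freedom and 189 prior ones, which pool the spread of all genes tested. Its SEs and edgeR p-values thus rest mostly on that pooled spread. They rest little on a gene's own gap between descending a and b. DESeq2 called only Hey2 of the 4, with adjusted p of 0.0506 for Jag1, 0.276 for Dll1 and 0.911 for Hes1. The median over the 6 members tested was -1.56, against -0.01 over all genes.

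Notch1 and Hes1 were the only members tested in macrophages by library. That fit took its spread from the pooled genes, and not from a gene's own gap between descending a and b. Hes1 was at 84.7, 210, 73.5 and 71.5 CPM and Notch1 at 14.6, 22.7, 39.6 and 26.0 CPM in the library order. Against the descending pair, edgeR called neither in the arch, where 5.42% of 7306 genes were called, 2.61% higher and 2.81% lower. Both had an unadjusted p under 0.05 there, and DESeq2 called 0. In the adventitia Hes1 was lower by 0.85 (SE 0.28, edgeR adjusted p = 0.0220), where 12.9% of genes were called, 7.34% higher and 5.52% lower. Without descending b that difference was -0.04, and DESeq2 gave an adjusted p of 1.000, the fit with no filter 0.361 and the cells with at most 5% mitochondrial UMIs 0.164, so the Hes1 call rested on library b.

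Hes1 differed between the replicate libraries in all 3 classes. Its level in descending b was 1.43 times that in descending a in endothelium, 2.86 times in fibroblasts and 2.48 times in macrophages. The immediate early gene Fos was 2.60, 1.92 and 0.919 times. Every immediate early gene was higher in descending b in endothelium, from 1.33 times for Ier2 up to Fos. The same held in fibroblasts, from 1.09 times for Jun to 1.94 times for Junb. In macrophages Egr1 was 1.61 times and Fosb 1.05 times, and the others were lower in descending b. Across the 4 libraries the immediate early sum in endothelium was 4050, 7011, 2947 and 11319 CPM, in the same order of libraries as the endothelial Hes1 level. In fibroblasts it was 6077, 10191, 7228 and 14698 CPM, highest in the adventitia, where Hes1 was lowest. In macrophages it was 11424, 10578, 13132 and 8950 CPM, with Hes1 highest in descending b. The part of cell isolation in the Hes1 levels was not tested. By the same ratio Dll1 in endothelium was 0.705 times, Hey2 1.23 times and Notch1 1.09 times.

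Whether the arch difference was itself larger in endothelium than in fibroblasts was tested by the interaction of class and group. The test was 1 fit of the endothelial and fibroblast sums of all 4 libraries over 12888 genes. It had 2 residual degrees of freedom and 9.96 prior ones. It carried no block for the library. The endothelial and fibroblast sums of a library, which come from the same pooled mice, were thus treated as independent. By edgeR none of the 10 members was called, where 0.341% of genes were, 0.256% higher and 0.0854% lower in endothelium, and 3 had an unadjusted p under 0.05 (Notch1, Hey1 and Hey2). DESeq2 called 0 of the 10, with no adjusted p for 6 of them. Dll1 differed by -1.25 ± 0.68 (edgeR adjusted p = 0.761), Dll4 by -1.48 ± 0.76 (edgeR adjusted p = 0.752) and Notch4 by -0.05 ± 0.59 (edgeR adjusted p = 1.000). A larger arch difference in endothelium than in fibroblasts was thus not shown for any member. The arch fibroblasts held 10 Dll1 and 7 Notch4 UMIs, and the ratio of arch to descending level for Notch4 was 0.462 in fibroblasts and 0.433 in endothelium.

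The genes whose levels ran most like each member were named over the 27 class-by-library sums of at least 50 cells, by Pearson's r of log2(CPM + 10) among 10134 genes. The sums share libraries and depth, and the correlations are a description. Hey2 was followed most closely by Dhh (0.989), Foxc2 (0.982) and Plek2 (0.980), Dll4 by Ushbp1 (0.982), Notch4 by Sema3g (0.979), Dll1 by Exoc3l2 (0.971), Mal (0.970) and Igf2 (0.965), and Jag2 by Robo4 (0.970). Notch3 was followed by Col13a1 (0.963), Hey1 by Adgrl4 (0.953), Jag1 by Apbb2 (0.942), Notch1 by Cav2 (0.898) and Hes1, which had no close match, by Papss1 (0.852). Between members, Jag2 and Hey1 ran together at 0.923, Dll4 and Notch4 at 0.908 and Dll1 and Hey2 at 0.897, whereas Hey1 and Hey2 gave -0.02 and Notch3 and Hey2 -0.11.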

How the data were processed

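The values deposited by the authors are raw UMI counts of genes in barcodes, made with Cell Ranger 2.1.2 on mm10 per the submitters' processing notes from 10x 3′ v2 libraries per the labels. The annotation release and the counting strand are not given in the sources used here. Barcodes needed 200 or more detected genes and a mitochondrial share of no more than 10%. Scrublet (scanpy 1.11.5) marked 8, 6, 21 and 4 barcodes by its automatic threshold, too few in the adventitia, so the highest scores were removed as the loading predicts (52, 37, 50 and 647), a choice made with those calls known. Leiden clusters (resolution 1, 2000 variable genes, 30 components, 15 neighbours) were named from at least 3 detected markers, and the Notch pathway lists were kept out of the variable genes. UMIs were summed per class and library and tested with edgeR 4.0.16 (TMM factors, filterByExpr, quasi-likelihood test, Benjamini-Hochberg over all genes, R 4.3.3), with DESeq2 1.42.0 as an alternative. The comparisons of endothelium with fibroblasts and with macrophages carry the library as a block, since both classes come from the same pooled mice. The interaction fit carries no such block. The test was also run on simulated data, with the same fixed spread for every gene and changes placed only in genes above a low mean level. There the endothelial arch comparison recovered 95% of genes changed by 1.5 on the log2 scale and 100% of those changed by 3 among 12615 genes. That spread was not estimated from these libraries, so the shares do not give the power for the real data. Poisson and Clopper-Pearson intervals (95%) and floors of 3 counts cover counting error only. All 10 members are named, and of each other list at most the 4 genes with the lowest adjusted p in each direction. The members and the lists were chosen with earlier results of these data known. Promoters came from RefSeq for GRCm38.p6 and coordinates from GENCODE M21.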

Additional observations from a re-analysis of the deposited data

Results flagged for a closer look

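Notch3 gave signals in cell classes that entered no comparison. It was at 227 CPM in the adventitial pericytes and at 12.7 CPM in the arch thymocytes, whereas its highest level in the classes compared was 4.62 CPM, in adventitial endothelium. Both are single libraries with no test.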

How the results depend on the processing

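The number of genes called depended on the tool. In place of the edgeR counts, DESeq2 called 173 genes instead of 814 for the endothelial arch comparison, 2173 instead of 3929 for the endothelial adventitia, 52 instead of 580 and 623 instead of 2942 for fibroblasts of the arch and adventitia, 77 instead of 396 and 185 instead of 939 for macrophages, and 24 instead of 44 for the interaction. Without the filter on low counts the counts were 1594 (endothelial arch), 158 (macrophage arch) and 254 (interaction), and in the cells of the same classes with at most 5% mitochondrial UMIs, an alternative chosen after seeing the data, the endothelial arch count was 1275. Adding the adventitial library gave 3936 instead of 6154 genes for endothelium against fibroblasts. Leaving out 1 library gave 4784 to 6517 genes there and 3487 to 3718 instead of 4471 against macrophages. Without the library as a block, the counts were 5275 and 4397. No paired analysis was possible for the arch and adventitia because those groups share no replicate number with the descending libraries. Of 569 alternative values for the members, none reversed a call. Apart from leaving out a library, 411 kept their side of the threshold, 12 passed it and 10 lost it. With a library left out, 2 lost it and 116 were counted as held. Leaving out a descending library gave no test in the arch, adventitia and interaction comparisons. There, held means only that the value moved by less than the standard error of the difference. The other 18, most of them of Hes1 and with Dll1 in arch endothelium among them, had no test and moved by more than that. The 8 values of opposite sign belong to differences that were not called, with Hes1 in arch fibroblasts at 0.33 without descending b among them. Beside the gained calls of Hey2 and of fibroblast Hes1 given with the results, the edgeR adjusted p passed with no filter for Jag2 (0.0316) and Hes1 (0.00382) in arch endothelium and Notch4 (0.0482) in adventitial endothelium, with doublet calls kept for the same Notch4 difference (0.0421) and Hes1 in arch macrophages (0.0449), and at no more than 5% mitochondrial UMIs for Hes1 in arch endothelium (0.0323). Clustering at resolution 0.5, or with the pathway genes kept, returned the same intimal cells of the 3 classes, so it says nothing about stability there. At resolution 0.5, adventitial endothelium merged with pericytes and gave no value, nor did clustering the cells with at most 5% mitochondrial UMIs. Depth limits Jag2 and Notch3 throughout and the fibroblast and macrophage levels of Dll1, Dll4 and Hey1.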
